A study of Mus musculus with 48 samples.

Results

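The 8 cells described here are the daughters A and B of 4 first divisions of mouse hematopoietic stem cells, out of 48 cells from 24 divisions profiled by single-cell ATAC-seq, in which a transposase inserts sequencing adapters into accessible DNA. Divisions 3y4, 3y8 and 4y1 came from young mice (10 to 12 weeks) and division 3a2 from aged mice (20 to 26 months), so that young and aged divisions cannot be compared beyond 1 aged division. The labels give the strain as B6.SJL, whereas the ATAC-seq methods name C57BL/6 mice. Sorted long-term stem cells were cultured singly for 40 to 44 h with cytokines, among them SCF and G-CSF, at 50 ng/mL each (the methods give a different concentration), and the daughters were separated by hand after the first division. The records name no further treatment of these cells, although the series as a whole is described as cultured with and without treatment. The mice behind the divisions are not named, the letters A and B may be arbitrary, and the culture outside the niche limits the model. The leading number of a name, 3 or 4, is treated as a library set, although no record explains it.

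The divisions were selected on measured values, namely near-equal numbers of listed regions in both sisters and over 3000 peaks at a -log10 q over 2 in each cell. Region numbers of A and B were 141928 and 145966 in 3y4, 158267 and 162451 in 3y8, 178742 and 182869 in 4y1, and 127380 and 132496 in 3a2. The lowest peak number among the members was 3828, in 3y8A, and the highest ratio of regions was 1.04, in 3a2. By peak number the nearest division left out was 3a5, with 1307 such peaks in its poorer daughter and a region ratio of 2.12. By region ratio it was 4y2, at 1.07 but with 2 such peaks in its poorer daughter, followed by 4y5, at 1.16 with 105. Daughter B had more regions than daughter A in all 4 divisions.

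A stem cell that divides may pass its chromatin state to both daughters or to 1 of them, and differences between sisters are read as asymmetry of fate. Promoters of housekeeping genes commonly lie in CpG islands and are accessible in most cell types, whereas promoters of lineage genes open as cells mature. A diploid cell holds few copies of each promoter, so single-cell data are sparse and an empty promoter may be a missed one.

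The lists of different cells were not independent, which bears on every result that follows. Between 93.6% (4y1B) and 95.4% (3y4B) of the regions of each of the 8 cells were listed with the same start and the same end in at least 1 cell of the 23 other divisions. Among the other 3 divisions described here alone, it was 72.9% in 3y4A and 80.7% in 3y4B, the lowest and highest of the 8 cells. Of the peaks of a cell, 93.2% to 95.8% recurred in this way among the 23 divisions. The sister listed 37.8% (of 3a2B) to 49.2% (of 3y4A) of a cell's regions.

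The match was exact to the base. Regions of 150 bp hold a single insertion position, and 3y4A and 3y8A, from different divisions, had 19884 of them at the same start, against 191 when the regions of 3y8A were shifted by 1 base and 10 when they were shifted by 10 bases. Over the 24 pairs of cells from different divisions, the number was 15070 to 31251 unshifted, 155 to 289 after a shift of 1 base and 3 to 17 after a shift of 10 bases. Sisters shared 43.5% ± 5.35 of the 150-bp regions of the smaller list (SD, n = 4 pairs) and cells of different divisions 39.3% ± 6.97 (SD, n = 24 pairs). At least 1 kb from any peak of either cell, these shares were 45.0% ± 5.39 and 40.9% ± 7.37. Sharing did not stop at library set or age, as cells of different sets shared 44.8% ± 4.15 (SD, n = 12 pairs), cells of different ages 38.4% ± 6.55 (SD, n = 12 pairs) and different divisions within set 3 33.8% ± 4.22 (SD, n = 12 pairs). Every pair of different sets includes a daughter of 4y1, so that the 44.8% rests on 1 division of set 4. Its lists were the longest, with 73924 (A) and 76666 (B) regions of 150 bp, and shares are of the smaller list.

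**Figure D1:**
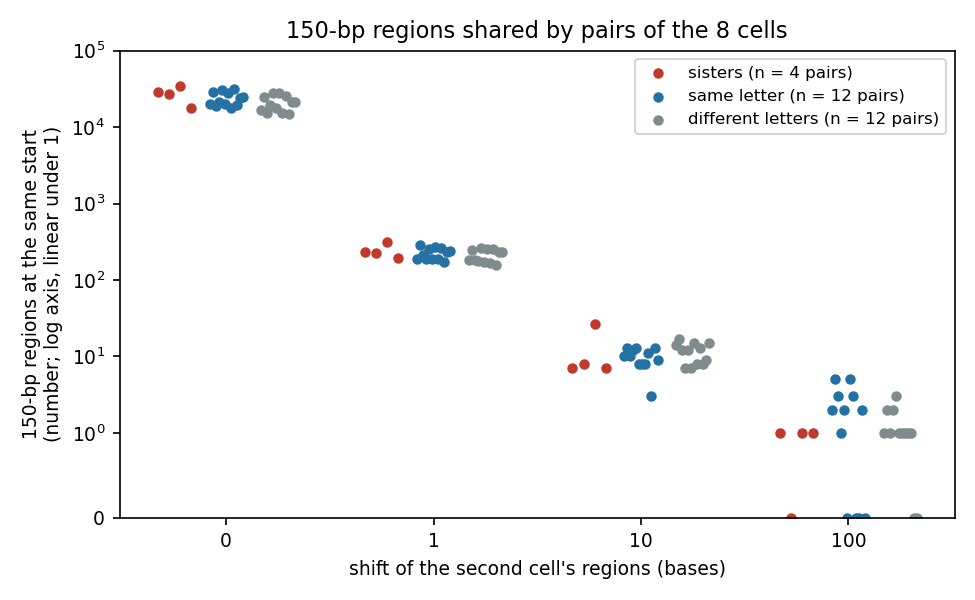
The number of 150-bp regions at the same start in 2 cells (vertical, log axis) is plotted against the shift given to the regions of the second cell in bases (horizontal); each point is 1 pair of the 8 cells, sisters in red, same-letter cells of different divisions in blue and different-letter cells in grey. In every kind of pair the number fell from 15070 or more without a shift to 318 or fewer at a shift of 1 base.

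Not all overlapping regions were identical. The 48 cells held 857501 distinct regions, 43.5% of which overlapped the next one without equalling it. Identical regions also had the same pileup, the number of insertions overlapping at the summit, in 95.7% of the regions common to 3y4A and 3y8A and in 96.6% of those common to the sisters 3y4A and 3y4B. How identical insertions came into the lists of different cells was not tested. Since 8 lists with common content are not 8 independent measurements, a promoter that is open in several cells may be 1 insertion event listed several times, and the main results are also given for the regions that no other of the 48 cells listed, a choice made after seeing the data. The order of letters over divisions, the genes of single divisions and the motif shares were not counted in that way. These remaining regions are few, with 1982 (3y8A) to 3583 (4y1B) peaks per cell against 43520 to 54396 in all.

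A gene was counted as open where a peak, a region with q under 0.05 by the peak caller's test within the cell, overlapped 1 kb either side of a RefSeq TSS. Of 26180 genes, 5950 were open in 3y4A, 6957 in 3y4B, 6509 in 3y8A, 6718 in 3y8B, 7544 in 4y1A, 7788 in 4y1B, 7134 in 3a2A and 7591 in 3a2B. Most peaks anywhere in the genome had a pileup of 2, from 74.5% in 4y1B to 82.1% in 3y8A. Of the open genes, 34.8% (4y1B) to 50.3% (3y4A) had no region with a pileup over 2 at the promoter, and 2 insertions could be the ends of 1 fragment.

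In division 3y4, 4614 genes (17.6%) were open in both sisters, 1336 (5.1%) in A only, 2343 (8.95%) in B only and 17887 in neither. In 3y8 the numbers were 4455 (17%), 2054 (7.85%), 2263 (8.64%) and 17408. In 4y1 they were 5567 (21.3%), 1977 (7.55%), 2221 (8.48%) and 16415. In the aged division 3a2 they were 5257 (20.1%), 1877 (7.17%), 2334 (8.92%) and 16712. Genes open in both made up 54.7% ± 2.72 of the genes open in either sister (SD, n = 4 divisions), and the aged division, at 55.5%, lay within the young values of 50.8% to 57.0%. With the regions that no other cell listed, the share was 11.2% ± 1.97, a fall that follows in part from the choice itself, since it drops what both sisters list, with 154, 139, 308 and 255 genes open in both sisters of 3y4, 3y8, 4y1 and 3a2. B-only genes outnumbered A-only genes in 4 of 4 divisions, by 1.83 ± 1.41 percentage points of all genes (A minus B -1.83, exact two-sided sign-flip permutation p = 0.125, the smallest that 4 divisions allow), in the direction of the region numbers. Peak numbers also differed in this direction, with 45085 (A) and 50664 (B) in 3y4 and 43520 and 47196 in 3a2. They were 46102 and 48367 in 3y8 and 52149 and 54396 in 4y1. Division 3y4 weighed most in the gene difference, at -3.85 points against -0.798 in 3y8, -0.932 in 4y1 and -1.75 in 3a2, and without it the mean was -1.16. Without regions listed elsewhere this difference was 0.102 ± 0.303 points (exact permutation p = 0.75), with 0.485 in 3y4, -0.206 in 3y8, -0.0611 in 4y1 and 0.191 in 3a2, and so had no common direction.

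**Figure D2:**
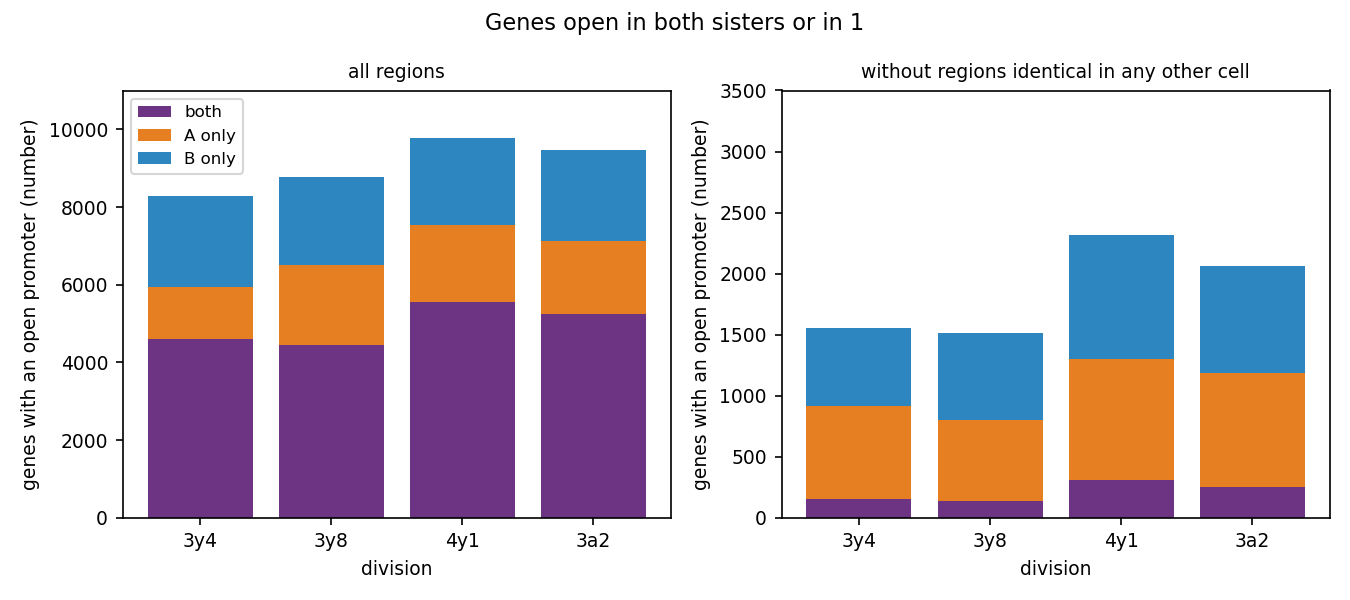
Genes with an open promoter (vertical, number) per division (horizontal), stacked as open in both sisters, in A only and in B only, from all regions (left) and from regions that no other cell listed (right; the vertical scales differ). On the left 4455 to 5567 genes were open in both sisters and on the right 139 to 308.

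Genes open in only 1 sister were checked for listed regions under the threshold in the other. Of the genes open in 1 sister, 55.3% in 3y4, 53.0% in 3y8, 60.8% in 4y1 and 56.6% in 3a2 had a listed region under the threshold in the promoter of the other (mean 56.4% ± 3.26, SD, n = 4). That left 1646, 2027, 1646 and 1827 genes with no region at all in the sister. At q under 0.01, 90.7% of the genes open in 1 sister had a listed region in the other, which follows in part from the stricter threshold itself. With the regions that no other cell listed it was 8.43%. The share of all genes with a listed region was not set beside these values. The listed region also need not be the one open in the sister, so how far such calls rest on the threshold cannot be read from them.

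Sisters were compared with other pairs of the 8 cells by the number of genes open in both cells over the number open in either. This agreement was 0.556 in 3y4, 0.508 in 3y8, 0.570 in 4y1 and 0.555 in 3a2. The mean of 0.547 ± 0.0272 (SD, n = 4) exceeded that of the 24 other pairs, 0.514 ± 0.0485, by 0.0333 (one-sided exact permutation p = 0.0286 over all 105 pairings of 8 cells). The divisions were selected for sisters with near-equal region numbers, and unequal numbers lower this agreement, so that the selection favours sisters and the p is no evidence by itself. With the genes open in both over the geometric mean of the 2 numbers, an alternative added after seeing the data, sisters had 0.708 and other pairs 0.679, a difference of 0.0286. Agreement followed the letter as well as the division. Cells of different divisions with the same letter had a mean agreement of 0.541 ± 0.0434 (SD, n = 12 pairs), which sisters exceeded by 0.00668, and cells with different letters 0.487 ± 0.0387 (SD, n = 12 pairs). Among daughters B it was 0.575 ± 0.0258 (SD, n = 6 pairs) and among daughters A 0.507 ± 0.0268 (SD, n = 6 pairs), so that B cells of different divisions were on average more alike than sisters. With regions that no other cell listed, the means among daughters B and among daughters A were 0.115 ± 0.0144 and 0.113 ± 0.0117, nearly without a gap. Same-letter pairs still lay above different-letter pairs with these regions, as given below. The highest agreement of all 28 pairs was 0.605, between 4y1B and 3a2B, a young and an aged cell of different library sets, which also shared 51.4% of their regions exactly. Identical regions followed the same order, with 45.7% ± 4.41 of the smaller list in sisters, 43.2% ± 6.52 in same-letter and 37.2% ± 6.26 in different-letter pairs. With regions that no other cell listed, sisters had an agreement of 0.112 ± 0.0197, same-letter pairs 0.114 ± 0.0125 and different-letter pairs 0.100 ± 0.0127, and sisters exceeded all other pairs by 0.00468 (exact permutation p = 0.238). The part of the common regions in the agreement of sisters was otherwise not tested.

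**Figure D3:**
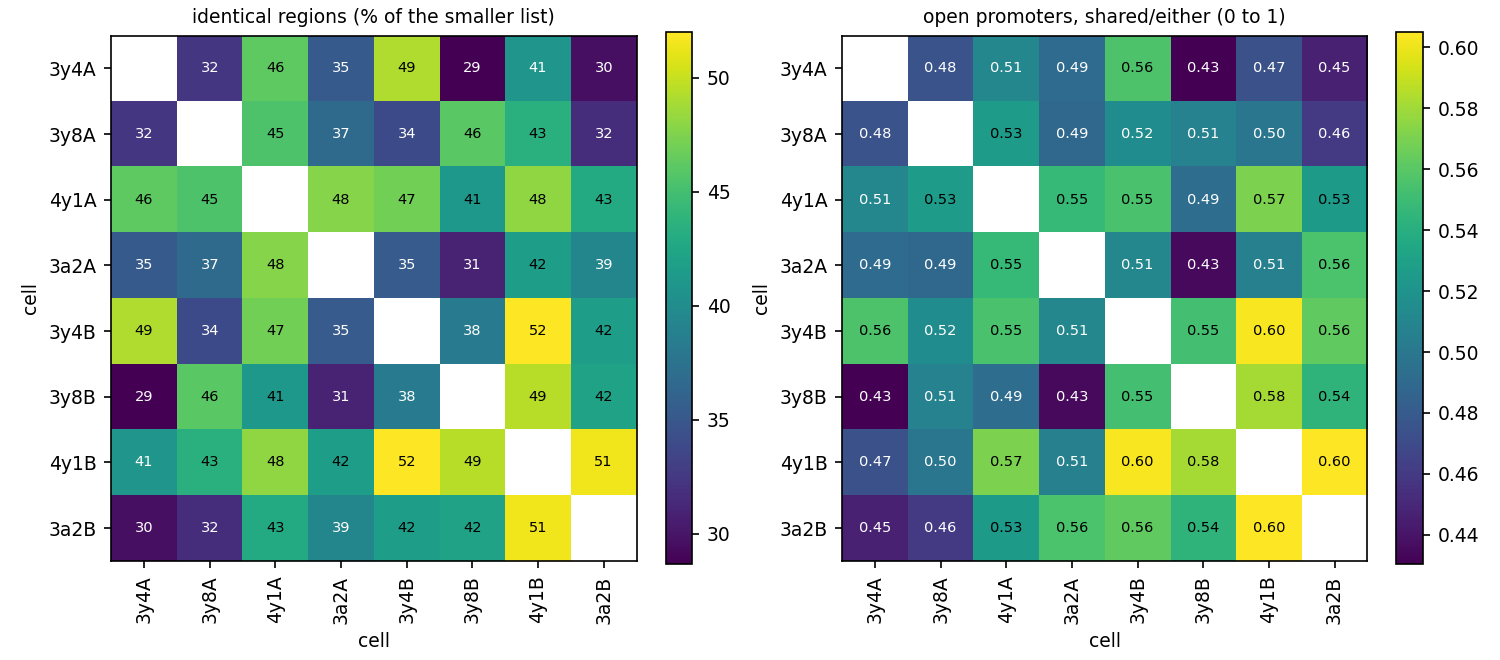
Each square gives a pair of the 8 cells, with daughters A first and daughters B after them, by the identical regions as a percentage of the smaller list (left) and by the genes open in both over those open in either (right). The brightest squares on the right lie among daughters B and reach 0.605.

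**Figure D4:**
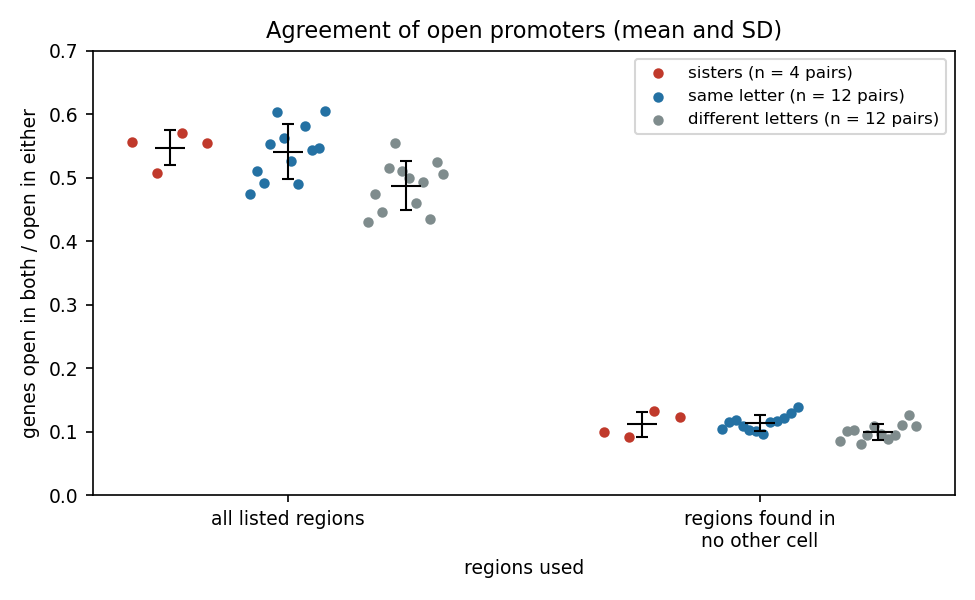
Genes open in both cells over genes open in either (vertical, 0 to 1) for pairs of the 8 cells from all regions and from regions that no other cell listed (horizontal); points are pairs, and bars give the mean and SD. Sisters and same-letter cells of different divisions overlap under both choices, at means of 0.547 and 0.541, and 0.112 and 0.114.

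Gene by gene, daughter B was compared with daughter A by limma on log2(promoter pileup + 1), with the division as a block. Promoter pileup is the summed pileup of the regions within 1 kb of a TSS, scaled to the total of the cell. Of 11361 genes with a mean of at least 1, limma called 0 at an adjusted p under 0.05 (0%), with a lowest adjusted p of 0.0752, and 1567 genes (13.8%) had an unadjusted p under 0.05, of which 823 were higher in B and 744 in A. This split depended on the settings, with 1132 and 545 without scaling and 675 and 1047 without a filter. Without 3y4 it turned, with 588 higher in B and 691 in A. The number with an unadjusted limma p under 0.05 fell to 909 (7.91%) without 3y8, 902 (8.13%) without 4y1 and 788 (6.95%) without 3a2. The 0 depended on the settings, as limma called 48 genes with a pseudocount of 0.5, 96 without scaling, 111 without a filter, 65 without the block and 79 from peaks only. Leaving out the regions also listed in other divisions left 1731 genes, of which 0 were called by limma and 129 (7.45%) had an unadjusted p under 0.05. The limma p values take cells of different divisions as independent, which the identical regions contradict.

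The 5 genes with the smallest limma p had a pileup of 0 in all cells of 1 letter and near-equal values in the other. Epor, the receptor for erythropoietin, had an unscaled promoter pileup of 4 in each of 3y4A, 3y8A, 4y1A and 3a2A and of 0 in all 4 daughters B. With 0 in a whole group, the fold of these genes is set by the added 1 and is not given. These genes passed the filter on the mean only through the letter where they were high. Their limma p therefore serves to order them and is no support for a difference. All 4 daughters A listed the identical region chr9:21962572-21962752 with a pileup of 2, a part of the 4, which lies within the Epor gene on the minus strand, and 7 of the 48 cells held it. Tgfb1, which encodes a growth factor that holds stem cells quiescent, also had 4 in every daughter A and 0 in every daughter B. Its region chr7:25687420-25687603, inside the gene, was identical in the 4 daughters A with a pileup of 4 in each, and it passed the peak threshold in 3 of them, all but 4y1A. The noncoding gene 9330179D12Rik had 4, 4, 6 and 4 in A of 3y4, 3y8, 4y1 and 3a2 and 0 in B, with chr6:127149566-127149747 identical in all 4. Os9, a lectin of protein quality control in the endoplasmic reticulum, had 0 in every A and 4, 4, 5 and 4 in B of the same divisions, and chr10:127121070-127121219 was identical in 3 of the 4. Gm41611, noncoding, had 0 in every A and 4, 4, 6 and 4 in B. For these genes the groups A and B did not overlap, and a region listed at the same bases stood in 4 of the cells for Epor, Tgfb1 and 9330179D12Rik, in 3 for Os9 and in 2 for Gm41611.

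**Figure D5:**
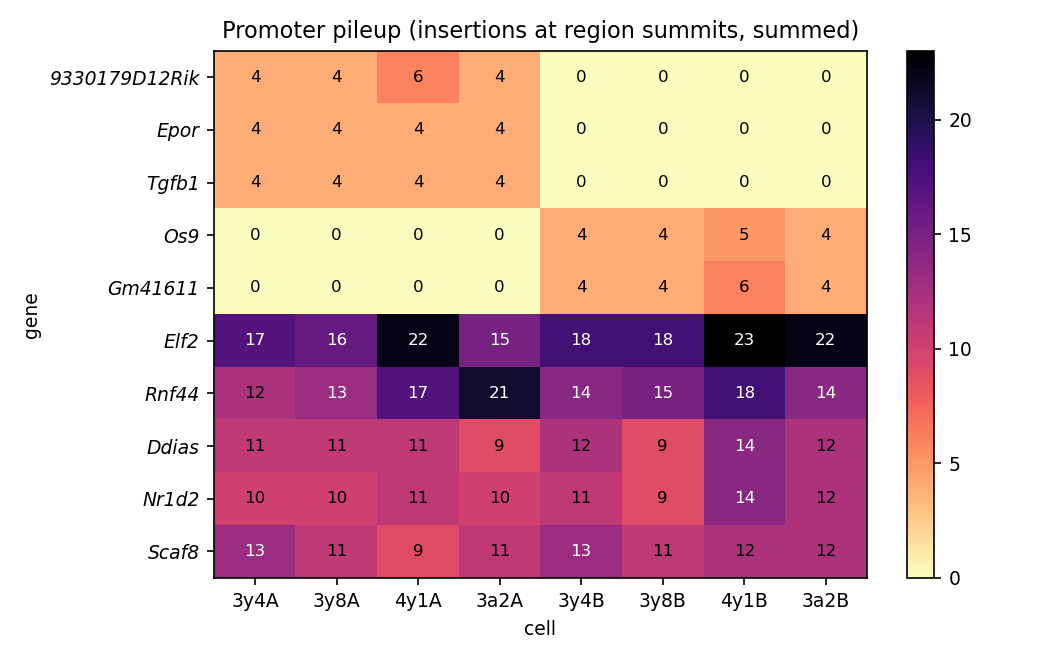
Promoter pileup (insertions at the summits of the regions within 1 kb of a TSS, summed, unscaled; number in each square) in the 8 cells (horizontal) for the 5 genes with the smallest limma p and for 5 genes open in all 8 cells (vertical). The upper 5 genes stand at 0 in all cells of 1 letter and at 4 to 6 in the other.

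In all, 319 genes were open in exactly 1 sister in all 4 divisions. The open sister was A each time for 48 genes (0.183% of all genes) and B each time for 159 (0.607%), whereas the 14 other orders of letters held 2 to 22 genes each (median 7), 112 together. A region with the same start and end stood in all 4 open cells for 18 of the 48 and 71 of the 159 genes, and for 27 of the 112. By the summed difference in pileup the first of these genes were Mob4 (21), then Ptgir, Smg9 and Slc6a6 (19 each), the last on the A side, and then 9330179D12Rik, on the A side, and Gm41611, Mcm2, Ncapd3 and Vps26b, on the B side, tied at 18. Mob4, a component of the STRIPAK phosphatase complex, had a pileup of 3, 0, 3 and 0 in A and 7, 5, 8 and 7 in B of 3y4, 3y8, 4y1 and 3a2. Ptgir, the prostacyclin receptor, had 0, 0, 4 and 0 in A and 5, 5, 5 and 8 in B. Slc6a6, the taurine transporter, had 10, 7, 4 and 4 in A and 2, 0, 4 and 0 in B.

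Within single divisions, the strongest genes open in 1 sister with no region in the other mostly had regions in other divisions too. Olfr773, an olfactory receptor gene, was among the top B-only genes of 3y4, 3y8 and 3a2, with a pileup of 8, 8, 8 and 10 in B of 3y4, 3y8, 4y1 and 3a2 and 0, 0, 2 and 0 in A. Cd69, an activation marker of lymphocytes, had 6 in all 4 daughters B and 0, 0, 2 and 0 in A, and 3 daughters B held an identical region. Gm14379 had the same pileups as Cd69. On the A side, Rgcc, a cell cycle regulator, had 5 in 3y4A and 0 in 3y4B, 2 and 3 in 3y8A and 3y8B, 5 and 0 in 4y1A and 4y1B and 3 and 2 in 3a2A and 3a2B. Adcy8, an adenylyl cyclase, had 6 in 3y8A and 0 in 3y8B. Stn1, of the telomere-binding CST complex, had 6 in 3y8A and 0 in 3y8B, and 4 in each of 3y4A, 3y4B, 4y1A and 3a2A. Dnah1, a dynein heavy chain, had 8 in 4y1A and 0 in 4y1B, and Zfp831 had 0 in 4y1A and 6 in 4y1B. In the aged division, Cacfd1 had 6 in 3a2A and 0 in 3a2B, Eaf1, an elongation factor partner, had 5 and 0, and Dennd6a had 0 and 6. Mir7236 (6 in 3y4A), 0610010F05Rik (6 in 4y1A) and Gm39429 (6 in 4y1B) likewise had 0 in the sister, and Gm39429 alone had 0 in all 7 other cells.

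Of 26180 genes, those open in both sisters of a division with no listed region in the other 6 cells numbered 28 in 3y4, 54 in 3y8, 63 in 4y1 and 104 in 3a2. No such number was set beside them for 2 cells of different divisions. They therefore do not show a trait of sisters, nor of age with 1 aged division. In the aged division they included Smad5, a transducer of BMP signals, with a pileup of 5 in 3a2A and 5 in 3a2B, and 9630013D21Rik with 4 and 4. Division 3y4 had Ftdc1 with 4 and 4 and 4930417O22Rik with 2 and 2, 3y8 had Arhgap15, a Rac GTPase-activating protein, with 4 and 4 and 2010009K17Rik with 2 and 2, and 4y1 had Scarna13 with 6 and 7 and the channel gene Ano3 with 6 and 4. Among the 48 cells the region of Smad5 stood in 8 and that of Ano3 in 15, so that these genes were not private to their division. That of Scarna13 stood in 4y1A alone and not at the same bases in its sister 4y1B, so its count does not show whether the gene was private.

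A total of 1791 genes (6.84%) were open in all 8 cells and 13833 (52.8%) in none, and with the regions that no other cell listed 0 genes were open in all 8 and 21341 (81.5%) in none. The 10 genes with the highest lowest pileup among the former were led by the noncoding Gt(ROSA)26Sor, with 72 and 50 in 3y4, 50 and 48 in 3y8, 200 and 198 in 4y1 and 185 and 221 in 3a2 (A and B). Pgk1, a glycolytic kinase, had 38 and 24, 28 and 20, 92 and 82, and 78 and 74 in the same order. Both were lower in 3y4 and 3y8 than in 4y1 and 3a2, and such numbers of insertions in 1 cell exceed what a few copies of a promoter would be thought to give, the cause of which was not tested. Elf2, an ETS transcription factor, had 17 and 18, 16 and 18, 22 and 23, and 15 and 22. The other 7 ranged from 9 to 21 and were Rnf44, Ddias, Nr1d2, Prcp, Retreg1, Scaf8 and Zfp672, of which Ddias and Prcp share a promoter and have equal values.

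Promoters of Pgk1 and Elf2, open in all 8 cells, are shown beside those of Epor, open in the 4 daughters A, and Mob4, open in the 4 daughters B. They were taken in order from the named genes with a promoter sequence, for each letter among coding genes, and not by CpG content. The stretch shown need not be the open one, as a peak overlapped it in 8 cells for Pgk1, 6 for Elf2, 0 for Epor (with a listed region in 4) and the 4 daughters B for Mob4. The RefSeq sequences run 5′ to 3′ from 250 bases before to 50 after a gene start in GRCm38.p6, and capitals mark the motifs GGGCGG and also CCAAT and also CCGGAA on either strand. They lie at chrX:106186850-106187149 (plus strand), chr3:51340595-51340894 (minus), chr9:21963527-21963826 (minus) and chr1:55130995-55131294 (plus).
Pgk1: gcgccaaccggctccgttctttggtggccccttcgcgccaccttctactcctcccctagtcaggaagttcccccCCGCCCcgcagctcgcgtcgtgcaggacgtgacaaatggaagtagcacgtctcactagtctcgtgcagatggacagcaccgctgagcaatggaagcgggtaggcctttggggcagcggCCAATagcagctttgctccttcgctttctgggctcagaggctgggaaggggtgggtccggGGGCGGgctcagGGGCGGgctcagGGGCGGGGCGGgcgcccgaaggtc
Elf2: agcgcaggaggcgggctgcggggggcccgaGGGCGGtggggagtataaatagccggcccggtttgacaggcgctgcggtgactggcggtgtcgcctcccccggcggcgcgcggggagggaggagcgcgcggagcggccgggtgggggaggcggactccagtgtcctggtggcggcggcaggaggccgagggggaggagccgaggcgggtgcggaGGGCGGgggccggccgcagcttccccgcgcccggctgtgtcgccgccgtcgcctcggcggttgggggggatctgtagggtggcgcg
Epor: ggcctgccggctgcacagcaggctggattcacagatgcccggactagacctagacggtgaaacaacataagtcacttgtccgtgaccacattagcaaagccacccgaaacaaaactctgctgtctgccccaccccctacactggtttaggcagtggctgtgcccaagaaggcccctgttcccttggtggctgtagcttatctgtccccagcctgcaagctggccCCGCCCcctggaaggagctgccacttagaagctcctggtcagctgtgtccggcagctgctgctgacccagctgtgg
Mob4: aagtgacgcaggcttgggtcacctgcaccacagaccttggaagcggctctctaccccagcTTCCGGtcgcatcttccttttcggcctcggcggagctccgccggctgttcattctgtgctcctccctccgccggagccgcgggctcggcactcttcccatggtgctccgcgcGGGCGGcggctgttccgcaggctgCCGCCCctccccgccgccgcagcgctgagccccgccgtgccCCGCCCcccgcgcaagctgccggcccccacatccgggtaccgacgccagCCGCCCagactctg

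The observed-over-expected CpG ratio was 0.723 in the Pgk1 promoter, 0.998 in that of Elf2, 0.266 in that of Epor and 0.925 in that of Mob4. A promoter sequence was matched by symbol for 19528 of the 26180 genes, with a mean ratio of 0.535. The mean ratio was 0.742 ± 0.00704 for genes open in both sisters, 0.693 ± 0.00735 for A-only, 0.696 ± 0.00572 for B-only and 0.425 ± 0.0133 for genes open in neither (SD, n = 4 divisions). Genes open in both exceeded those open in 1 by 0.0475 ± 0.0123, in 4 of 4 divisions (exact sign-flip permutation p = 0.125, the smallest possible), by 0.0170 ± 0.00793 at q under 0.01 and by 0.0231 ± 0.00739 with regions that no other cell listed. By the number of open cells the mean rose from 0.368 for 0 to 0.622 for 1 and 0.773 for 8. GGGCGG, the GC box, was present in 69.0% ± 1.42 of promoters open in both, 61.5% ± 1.23 of those open in 1, 32.8% ± 1.59 of those open in neither and 45.0% of all. CCAAT stood at 42.9%, 37.9%, 38.2% and 39.1% in the same order, CCGGAA, an ETS core, at 29.3%, 26.1%, 13.0% and 18.5%, CACGTG, the E-box, at 11.1%, 10.0%, 6.51% and 8.03%, GCATGCGC, which matches NRF1, at 5.07%, 4.93%, 2.64% and 3.51%, and TATAAA, the TATA box, at 6.20%, 8.04%, 16.5% and 13.0%.

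Peaks were also classed by their centre as TSS (1000 bp before to 100 bp after a start), exon, intron or intergenic. Of the peaks of a cell, 54.2% ± 6.03 overlapped a peak of the sister by at least 1 base (SD, n = 4 divisions). The TSS class took 12.3% ± 2.08 of these shared peaks and 7.24% ± 0.512 of the unshared ones. The excess was 2.06 points in 3y4, 4.89 in 3y8, 5.82 in 4y1 and 7.56 in 3a2, a mean of 5.08 ± 2.30 (exact sign-flip permutation p = 0.125, the smallest possible), and 13.9 ± 7.26 at q under 0.01. Introns took 37.2% ± 1.12 of shared and 40.1% ± 0.362 of unshared peaks, exons 5.48% ± 0.445 and 5.71% ± 0.148, and intergenic sequence 45.0% ± 2.36 and 46.9% ± 0.592. With regions that no other cell listed, the excess of the TSS class among shared peaks was 28.4 ± 3.10 points, but there shared peaks are by construction only those that overlap without being identical, among few peaks, so that this value is no check on the 5.08.

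Shares of the gene lists are given beside those of all genes, of which 6.84% were open in all 8 cells, 52.8% in none, 81.5% in none without common regions and 13.5% in 1 sister only, meaning in some cell but in no division in both. Of 29 transcription factors of stem cells, 3 were open in all 8 cells (10.3%, against 6.84% of all genes), 7 in none (24.1%, or 18 and 62.1% without common regions) and 9 in 1 sister only (31.0%). Among all the lists the share in 1 sister only ranged from 0% (granulocyte and monocyte markers) to 35.7% (erythroid markers), with 27.2% for ribosomal protein genes. A high share was thus not particular to the stem cell lists. Runx1, which is needed to form stem cells, had 10 and 11, 8 and 8, 10 and 8, and 7 and 7 in 3y4, 3y8, 4y1 and 3a2 (A and B). Fli1, an ETS factor, had 4 and 5, 4 and 4, 8 and 5, and 7 and 3, and Hhex 4 and 5, 6 and 8, 5 and 10, and 5 and 8. Ldb1, a cofactor of the GATA complexes, was called open in B of 3y4, 3y8 and 4y1 only, although its pileup was 7 in 4y1A and 5 in 4y1B, and Gata2 in A of 4y1 and 3a2 only, with listed regions in 7 cells. Meis1, Mecom, Prdm16, Hoxa9 and Bmi1 were open in 0 cells, although all but Hoxa9 had regions under the threshold in some cells, Mecom in 7. Of 20 surface genes, Cd34, used to sort the cells by its absence, was open in all 8, 8 were open in none (40%; 16 or 80% without common regions, near the 81.5% of all genes), among them Kit, Slamf1 and Ly6a, and 6 in 1 sister only (30%). Kit, a marker of the sorted cells and a receptor for a culture cytokine, thus had no peak at its promoter in any cell. Flt3 and Robo4 were open in B and not in A in all 4 divisions, but both had listed regions in A, with pileups of 4, 0, 4 and 3 for Flt3 against 6, 6, 6 and 5 in B.

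Genes of polarity and chromatin were open in a median of 5 (polarity, H4K16 acetylation) and 6 (chromatin) of the 8 cells, against 5 for cell cycle genes, 4.5 for glycolysis genes and 0 for all genes, without a test. Of 41 polarity genes, 5 were open in all 8 cells (12.2%; Dlg4, Llgl2, Rac2, Numb and Numa1) and 7 in none (17.1%, against 52.8% of all genes; 25 genes with the regions that no other cell listed), among them Insc and Prkcz. Numb, an inhibitor of Notch that can pass unequally to daughters, had 4 and 4, 5 and 5, 4 and 6, and 4 and 6 (A and B). Cdc42, the small GTPase of cell polarity, had 0 and 2 in 3y4, 0 and 0 in 3y8, 2 and 2 in 4y1 and 2 and 2 in 3a2, and 4 of its 5 open cells listed the identical region chr4:137357626-137357853, found in 11 of the 48 cells. Wnt5a, a noncanonical Wnt ligand, had 0 and 0, 0 and 0, 3 and 0, and 2 and 2, and its region chr14:28504865-28505092 was identical in 3 cells of the 8 and also in 11 of the 48. Of 19 genes of H4K16 acetylation, Kansl1 and Hdac2 were open in all 8 cells (10.5%) and 3 in none (15.8%; 11 without common regions). Of 23 chromatin regulators, 6 were open in all 8 (26.1%, against 6.84% of all genes; Lmna, Dnmt1, Chd4, Smc3, Dnmt3b and Suz12), Smarca4 alone in none (10 without common regions), and Kmt2d in B and not A in all 4 divisions, with a pileup of 2 in each A. Of 28 genes of the Wnt pathway, 4 were open in all 8 (14.3%; Gsk3b, Fzd7, Fzd1 and Dvl1) and 8 in none (28.6%; 18 without common regions).

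Of 33 cell cycle genes, 8 were open in all 8 cells (24.2%, against 6.84% of all genes) and 6 in none (20 without common regions), the former including Mcm4, Mcm6, Mcm7, E2f1, Cdt1 and Mcm5, which serve or drive DNA replication. Mcm2, of the same helicase, was open in B and not A in all 4 divisions, with 0, 2, 3 and 0 in A and 5, 4, 10 and 4 in B of 3y4, 3y8, 4y1 and 3a2. As Mcm2 was picked by these values and passed the filter on the mean only through B, its fold and limma p are not given. Of 20 glycolysis genes 6 were open in all 8 (30%) and 4 in none (10 without common regions), and of 81 ribosomal protein genes 12 (14.8%) and 15 (54). Of 22 genes of cytokine signalling, Shc1, Sos1 and Stat5a were open in all 8 (13.6%) and 6 in none (27.3%, against 52.8% of all genes; 12 or 54.5% without common regions, against 81.5%), among them Jak2 and Kit.

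Markers of mature blood cells and other tissues were open in none of the cells for 57.1% (erythroid), 66.7% (megakaryocyte), 87.5% (granulocyte and monocyte), 66.7% (B cell) and 64.3% (T and NK cell) of genes, against 52.8% of all genes. No cell had more than 3 of 14 erythroid, 3 of 12 megakaryocyte, 2 of 16 granulocyte and monocyte, 3 of 12 B cell or 3 of 14 T and NK cell markers open. Without common regions, 11, 10, 15, 12 and 14 of these genes were open in none, the erythroid (78.6%) and megakaryocyte (83.3%) shares being near the 81.5% of all genes. Alas2, Mpo, Elane, Pax5 and Cd3e were open in 0 cells, although Gzmb was open in all 8. Summed promoter pileup of the erythroid list was 10 and 12, 7 and 10, 14 and 19, and 10 and 5 (A and B of 3y4, 3y8, 4y1 and 3a2), with Tspan33 the most abundant. Of 12 stromal and endothelial markers 9 were open in none (75%), and of 15 genes of other tissues 10 (66.7%). Of 1125 olfactory receptor genes, which stem cells are not known to use, 1011 were open in none (89.9%) and Olfr585 in all 8, with a pileup of 2 in each.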

How the data were processed

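Each file listed the regions of 1 cell. The authors trimmed reads with cutadapt 1.9.1, aligned them to mm10 with Bowtie2 and called regions per cell with MACS2; no record names the other versions or the thresholds. The pileup values deposited are a signal, whole numbers of overlapping insertions at the summit, without normalization. The -log10 q values deposited by the authors are adjusted within each cell. Regions listed once per summit were joined, and chromosomes 1 to 19, X and Y were kept. Peaks had q under 0.05, with 0.01 as the stricter choice. TSSs came from 45756 RefSeq transcripts of GRCm38.p6, of the same build. Identical regions had the same chromosome, start and end.

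Promoter pileup was scaled to the mean total of the cells, 1 was added, and limma 3.58.1 (R 4.3.3) was fitted to genes with a mean of at least 1, with Benjamini-Hochberg adjustment over all of them and the division as a block. The daughters of a division come from 1 mother cell, which pairs them; across genes, their deviations from the means of their letter had Pearson's r of 0.217 in 3y4, 0.228 in 3y8, 0.0825 in 4y1 and 0.275 in 3a2. Single values were tested by exact permutation over divisions or over pairings of cells. In the sign-flip tests and limma the division was the replicate, so their p values measure the spread between divisions, which may be technical. The tests over pairings take the cells as exchangeable, and their p values measure no spread between divisions. Named genes were those with the highest lowest pileup among genes open in all 8 cells, the strongest genes open in 1 sister or in both sisters alone, those open in the same letter in all divisions, the 5 smallest limma p, Cdc42, Wnt5a and members of lists with the highest pileup. Members, lists and tests were chosen with earlier results of these data known. The removal of identical regions and the comparison by letter were added after seeing the data. Calculations ran in Python 3.11.15 (pandas 2.3.3, numpy 2.4.6, scipy 1.17.1; figures: matplotlib 3.10.9), and the tests were checked on simulated data. Alternatives changed the threshold, window, gene set, overlap, scaling, filter and divisions.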

Additional observations from a re-analysis of the deposited data

How the results depend on the processing

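The identical regions are a limit, since 4 divisions do not give 4 independent values, and no test here separates daughters from list content. Genes open in both as a share of those open in either moved from 54.7% to 35.5% at q under 0.01, 71.1% with every listed region, 12.8% without regions identical in other divisions and 11.2% without those identical in any other cell, where regions common to sisters are removed by construction. A-only minus B-only genes went from -1.83 points to 0.105 ± 0.313 and 0.102 ± 0.303 under the last 2 choices, which were added after seeing the data. Under both, divisions differed in sign. Sisters exceeded other pairs by 0.0333, and this passed its threshold no longer at q under 0.01 (0.0217, exact permutation p = 0.181), with a pileup of at least 3 (0.0344, p = 0.0857), or without regions identical in any other cell (0.00468, p = 0.238). It passed with every listed region (0.0396, exact permutation p = 0.00952), a narrower promoter window (0.0332, p = 0.0381) and coding genes (0.0340, p = 0.0286). It also passed over the 24 pairings of A with B (exact permutation p = 0.0417, the smallest possible), where the matching excess, over different-letter pairs, was 0.0599. The selection of divisions with near-equal region numbers favours sisters in these tests too, so that passing is no evidence by itself. Without each division in turn the excess of sisters was 0.0268 to 0.0471, the highest without 4y1, which leaves library set 3 only. With 3 divisions the 15 pairings cannot give an exact permutation p under 0.0667, so none could pass. Against same-letter pairs alone it was 0.00668 and against different-letter pairs 0.0599. Without regions identical in other divisions but with those common to sisters it was 0.0162 (exact permutation p = 0.00952), an alternative that keeps common regions for sisters only. Genes of 1 sister with a listed region in the other went from 56.4% to 90.7% at q under 0.01, 82.0% with a pileup of at least 3 and 8.43% without regions identical in any other cell.

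The limma comparison of A with B called 0 genes, but 48 with a pseudocount of 0.5, 96 without scaling (75 higher in B), 111 without a filter on low values, 65 with no replicate block and 79 from peaks only; which regions these rest on was not tested. It called 0 without each division in turn. The TSS excess stayed between 4.26 and 6.09 points, and the CpG difference between 0.0419 and 0.0516, when divisions were left out. At q under 0.01 they were 13.9 points and 0.0170. These 2 results kept their direction under the alternatives tried, of which the removal of identical regions is no check on the TSS excess, as it removes identical sister peaks by construction.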
